A study of Homo sapiens with 4 samples.

Results

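The transcripts of 9 chemokine receptor genes, CXCR4, CX3CR1, CCR1, CCR2, CCR7, CXCR1, CXCR2, CXCR3 and CCRL2, were followed in AZA-sensitive and AZA-resistant MDS cells. The array carried 13 gene probes named for these genes, of 58185 analysed probes with 43311 gene names, and every one of the 13 was read on all 4 arrays. The genes were selected by family and on signals that had already been seen on these same arrays, so their levels and ratios are descriptions and support nothing beyond themselves. MDS-L is a human cell line established from MDS, and MDS-L/CDA is its derivative made AZA-resistant by transduction of CDA, the enzyme that deaminates cytidine analogues. Each line was cultured for 72 h with AZA at 1 μM or with vehicle, which was DMSO at 0.1%, in medium that contained IL-3 for all 4 conditions, and RNA of each condition was hybridized to 1 one-colour array. The sample labels do not give 1 dose throughout, since the unit is μM in some fields and mM in others. For MDS-L with AZA and for MDS-L/CDA with vehicle, the treatment field names the opposite treatment, while title, description and source name of both samples give the condition used here. With 1 array per condition, no difference below has a replicate check and none was tested, and MDS-L/CDA cells are represented by a single culture per treatment.

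Chemokine receptors are membrane-spanning receptors coupled to G proteins, through which leukocytes and their progenitors sense gradients of small secreted chemokines. CXCR4, bound by CXCL12, is known for holding hematopoietic progenitors in the bone marrow. CX3CR1 is the receptor for fractalkine (CX3CL1) on monocytes and cytotoxic lymphocytes, CCR7 guides lymphocytes and dendritic cells to lymph nodes by CCL19 and CCL21, and CCR1 and CCR2 recruit monocytes. CXCR1 and CXCR2 are neutrophil receptors for CXCL8 and related ligands, CXCR3 is a receptor of activated T cells, and CCRL2 is an atypical member that binds chemerin (RARRES2) without classical G protein signalling. AZA is a cytidine analogue that traps DNA methyltransferases, so that methylation of cytosines at CG positions is lost as cells divide.

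All values are scanner signals scaled so that the 75th percentile of each array is 100, and a probe counted as detected where the scanner software flagged it as well above background. The lowest detected signal was 19.0 on both MDS-L arrays, 27.2 on the MDS-L/CDA vehicle array and 29.6 on the MDS-L/CDA AZA array, so dim transcripts were harder to see in the resistant line. Between 32.6% and 36.5% of probes were well above background on an array, and no probe was saturated. The progenitor markers CD34, KIT, CD33, ANPEP, IL3RA and CSF2RB, 6 of 6, were detected on all 4 arrays. On no array did the CDA probe reach this level. Its signal with vehicle and AZA was 10.5 and 9.43 in MDS-L cells, and 11.0 and 14.6 in the cells labelled MDS-L/CDA, so the label of the resistant line has no check from its transgene. Where a probe lay below background on the dimmer array of a pair, its ratio is given as a bound, taken against the higher of its own signal and the lowest detected signal of that array.

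The probes behind the receptors that differed most are 60 bases long, and their first 30 bases, 5′ to 3′, are shown to identify what was measured, with CG pairs in capitals where present. The pair of CCRL2 probes is shown because they gave different results. None of the 13 probes shared a run longer than 16 bases with a probe of another gene, on either strand.
CXCR4: tgctggtttttcagttttcaggagtgggtt
CX3CR1: agtcatgttccttcaagatcatgtacccca
CCR7: aagagagcaacattttacccacacacagat
CCRL2 probe 2: gtgagctaacatttgctaagcactgaattt
CCRL2 probe 1: tccccctatttatttttacatttctctatg
In hg19 coordinates the CXCR4 probe lies at chr2:136871953-136872012 and the CX3CR1 probe at chr3:39305034-39305093, both on the minus strand. The CCR7 probe lies at chr17:38710060-38710119 on the minus strand, and CCRL2 probes 1 and 2 at chr3:46450202-46450261 and chr3:46450722-46450781 on the plus strand, 460 bases apart. Exon and coding annotation of that build was not used here.

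Because AZA acts on methylation at CG positions, promoter sequence was counted for CG pairs, the dinucleotide CG read on one strand, which is the same count on the other. The windows of RefSeq run from 250 bases before to 50 bases after a transcription start in GRCh38.p14, and 8 of the 9 genes have at least 1. The first CXCR4 window (chr2:136118100-136118399, minus strand) held 27 CG pairs, a count that 28.2% of all 35116 windows of this length reached. The first windows of CX3CR1 (chr3:39281686-39281985, minus strand) and CCRL2 (chr3:46407009-46407308, plus strand) held 7 and 6, which 63.2% and 66.3% of windows reached. The 250 bases before the start of these 3 windows are shown with each CG in capitals.
CXCR4 promoter: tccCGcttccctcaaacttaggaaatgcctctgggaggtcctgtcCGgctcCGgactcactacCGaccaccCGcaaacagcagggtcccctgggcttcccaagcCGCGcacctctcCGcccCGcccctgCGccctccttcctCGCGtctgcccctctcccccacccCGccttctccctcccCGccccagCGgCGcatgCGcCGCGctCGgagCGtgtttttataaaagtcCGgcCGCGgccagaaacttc
CX3CR1 promoter: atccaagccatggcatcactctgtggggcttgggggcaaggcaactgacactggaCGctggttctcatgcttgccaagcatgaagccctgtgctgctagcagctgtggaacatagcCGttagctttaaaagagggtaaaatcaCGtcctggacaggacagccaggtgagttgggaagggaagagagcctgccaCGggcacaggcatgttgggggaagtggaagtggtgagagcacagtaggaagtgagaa
CCRL2 promoter: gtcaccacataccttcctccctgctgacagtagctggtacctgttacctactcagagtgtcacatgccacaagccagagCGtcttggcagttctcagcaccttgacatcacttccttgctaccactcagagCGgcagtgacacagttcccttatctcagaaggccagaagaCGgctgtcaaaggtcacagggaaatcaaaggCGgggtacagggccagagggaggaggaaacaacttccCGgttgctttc
Of the other receptors, CXCR2 had 7 CG pairs, CCR1 had 3, CCR2 and CXCR1 had 2 each and CXCR3 had 1, against a median of 14 over all windows. The other start sites of CXCR4 had 14 and 9, those of CX3CR1 had 3 and 1, and the other start of CCRL2 had 7. Methylation was not measured on these arrays, and the counts describe sequence alone.

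The number of receptors detected differed between conditions, as did the lowest detectable signal. Of the 9 genes, 5 had a detected probe with vehicle and 7 with AZA in MDS-L cells, against 3 and 5 in MDS-L/CDA cells. CXCR2, CXCR3 and CCRL2 were detected on all 4 arrays. CXCR4, CX3CR1, CCR1 and CCR7 were detected on some (the CCR1 signal of MDS-L AZA, 24.9, would lie under the lowest detected signal of both MDS-L/CDA arrays), while CCR2 and CXCR1 were detected on none. Over the 13 probes, 3 were detected on all arrays, 5 on some and 5 on none.

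**Figure D1:**
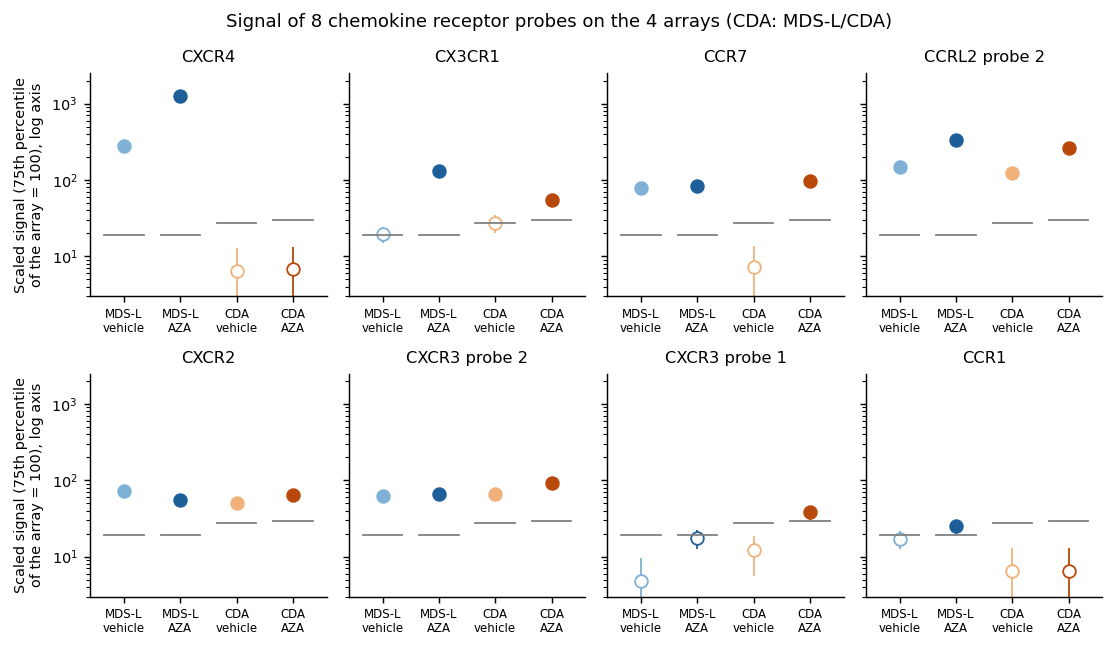
Scaled signal (log axis, 75th percentile of the array = 100) of 8 receptor probes on the 4 arrays. Filled circles are well above background and open circles are not, vertical bars are the scanner software's own error of the signal and run off the axis for the dimmest probes, and grey lines mark the lowest detected signal of each array. CXCR4 is filled on both MDS-L arrays and open on both MDS-L/CDA arrays.

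CXCR4 had the largest difference between the lines among these receptors. In MDS-L cells it gave 278 with vehicle and 1252 with AZA, and in MDS-L/CDA cells it was not well above background with vehicle (6.37) or AZA (6.80). AZA-treated MDS-L cells thus gave 4.50-fold the vehicle signal, a log2 ratio of 2.17, whereas no ratio can be given in MDS-L/CDA cells. Between the lines, CXCR4 was at least 10.2-fold lower in MDS-L/CDA than in MDS-L cells with vehicle and at least 42.3-fold lower with AZA. In a culture, fewer cells that express a transcript and less of it per cell cannot be told apart by these signals.

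CXCR4 has 10 spots on each array, which give the technical spread of its signal. In MDS-L vehicle they ran from 233 to 307 with a median of 277, and in MDS-L AZA from 1126 to 1373 with a median of 1241. The spots of the MDS-L/CDA arrays ran from 5.46 to 7.76 (median 6.27) with vehicle and from 5.98 to 7.46 (median 6.92) with AZA. Spots of the MDS-L vehicle and AZA arrays did not overlap, and those of both MDS-L/CDA arrays overlapped each other and lay far below all MDS-L spots. Each mean with its SD over 10 spots was 279 ± 22.8, 1254 ± 84.4, 6.41 ± 0.735 and 6.82 ± 0.508 in the same order, a spread that covers spotting and scanning but neither hybridization nor culture. All 10 spots were well above background on each MDS-L array and 0 on each MDS-L/CDA array. By the scanner's laxer flag, positive and significant, 2 and 3 of the 10 MDS-L/CDA spots passed with vehicle and AZA.

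**Figure D2:**
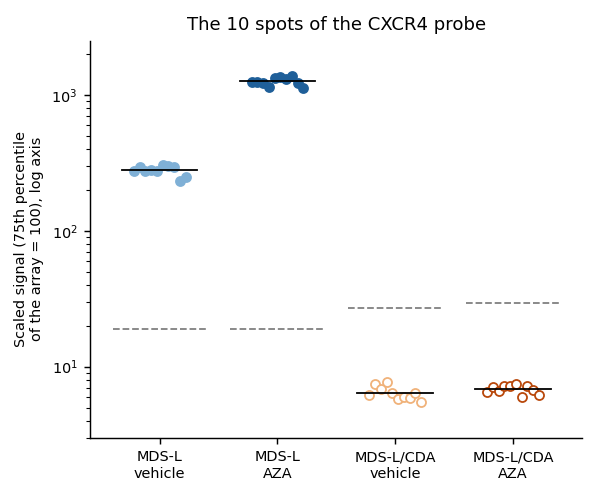
Scaled signal (log axis) of the 10 repeat spots of the CXCR4 probe on each array, with the mean as a black line and the lowest detected signal of the array as a dashed line. Filled spots are well above background, and all MDS-L/CDA spots are open and lie between 5.46 and 7.76.

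CX3CR1 was seen after AZA in both lines. With vehicle the signal was 19.7 for MDS-L and 27.5 for MDS-L/CDA, neither well above background, and with AZA it reached 129 and 54.5. Both vehicle signals lay at the edge of detection, just above the lowest detected signals of their arrays (19.0 and 27.2). Both also passed the positive and significant flag. The bounds for AZA against vehicle are therefore equal to the computed ratios. AZA signal was at least 6.57-fold that of vehicle in MDS-L cells. The bound for MDS-L/CDA cells was 1.98-fold, just under the fold of 2 used for counting. With AZA, the signal was 2.38-fold lower in MDS-L/CDA than in MDS-L cells. With vehicle neither line was well above background, so the lines were not compared. The scanner's own error of the signal, 13.7 in MDS-L AZA and 8.61 in MDS-L/CDA AZA, covers neither hybridization nor culture. Normexp background correction took the difference between the lines under a fold of 2 (log2 -0.52).

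CCR7 differed from CXCR4 in that the line with a higher signal after AZA was the resistant one. MDS-L cells gave 77.8 with vehicle and 82.2 with AZA. MDS-L/CDA cells gave 7.14 with vehicle, which alone was not well above background, and 97.4 with AZA. In the resistant line CCR7 was therefore at least 3.58-fold higher with AZA than with vehicle. For MDS-L cells the ratio was 1.06, and its log2 value ran from -0.46 to 0.26 over the other settings, so no direction is given. Without AZA the resistant line was at least 2.86-fold lower than MDS-L, and with AZA the ratio between the lines was 1.18, with log2 values from -0.26 to 0.28 over the other settings. The probe has 1 spot per array, so the single dim value of MDS-L/CDA vehicle carries both contrasts.

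CCRL2, the atypical chemerin receptor, was the one receptor higher by the fold rule with AZA in both lines. Its probe 2 gave 146 with vehicle and 336 with AZA in MDS-L cells, and 122 and 260 in MDS-L/CDA cells. The AZA ratio was 2.30 in MDS-L and 2.14 in MDS-L/CDA cells, and the ratio of MDS-L/CDA to MDS-L cells was 0.83 with vehicle and 0.77 with AZA. Both AZA arrays were above both vehicle arrays. The other probes of the gene did not show this, since probe 1 lay between 4.39 and 8.85 and probe 3 between 4.47 and 7.04 on the 4 arrays, neither well above background anywhere. Probe 3 targets a transcript that the array design also lists as a long noncoding RNA (lnc-CCRL2-1). The ratio in MDS-L cells fell under 2 with scaling to the array median (log2 0.66), and that in MDS-L/CDA cells did so without scaling (log2 0.97).

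CXCR2 and CXCR3 were within a fold of 2 at the probes detected everywhere, except that scaling to the array median placed CXCR2 lower in MDS-L/CDA than in MDS-L cells with vehicle (log2 -1.04). CXCR2, the neutrophil receptor, gave 71.5 with vehicle and 55.0 with AZA in MDS-L cells, and 49.8 and 64.0 in the resistant line. Its AZA ratio was 0.77 in MDS-L and 1.29 in MDS-L/CDA cells. CXCR3 probe 2 gave 62.6, 66.9, 65.4 and 91.1 in the same order, with AZA ratios of 1.07 and 1.39. The first of these turned sign with the scaling (log2 from -0.45 to 0.28). CXCR3 probe 1, 990 bases away, was detected in MDS-L/CDA AZA alone, at 38.1 against 12.1 with vehicle, and gave 4.73 and 17.5 with vehicle and AZA in MDS-L cells. Its bound was at least 1.40-fold for AZA in MDS-L/CDA cells and just under a fold of 2 against MDS-L AZA.

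The monocyte receptors and CXCR1 were dim. CCR1 was detected in MDS-L AZA alone, at 24.9, with 17.1 in MDS-L vehicle and 6.43 and 6.54 in MDS-L/CDA vehicle and AZA, and the bound for AZA in MDS-L cells was at least 1.31-fold. Both CCR2 probes, which target different isoforms, lay between 3.81 and 8.04 on every array, and CXCR1 between 4.64 and 6.87. These transcripts were not detectable at this signal, which does not show that they are absent.

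Counted by genes, AZA gave a signal at least 2-fold higher for 3 of the 7 receptors compared in MDS-L cells (CXCR4, CX3CR1 and CCRL2), beside 7.7% of all 17202 genes compared. It gave a lower signal for 0 of 7, beside 7.51%. For MDS-L/CDA cells 2 of 5 receptors compared were higher (CCR7 and CCRL2), beside 3.09% of 15410 genes, and 0 of 5 were lower, beside 4.09%. MDS-L/CDA cells with vehicle were lower than MDS-L cells for 2 of 5 (CXCR4 and CCR7), beside 3.46% of 16034 genes, and higher for 0, beside 2.59%. With AZA they were lower for 2 of 7 (CXCR4 and CX3CR1), beside 6.26% of 16768 genes, and higher for 0, beside 6.74%. With normexp background correction the log2 ratio for AZA dropped under a fold of 2 for CX3CR1 in MDS-L cells (0.90), CCR7 in MDS-L/CDA cells (0.39) and CCRL2 in both (0.80 and 0.58), while CXCR4 stayed past it in MDS-L cells. As the genes were selected with these signals known, nothing is read from the counts against the background. These comparisons share arrays in pairs, and the members' ratios are therefore given one comparison at a time.

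**Figure D3:**
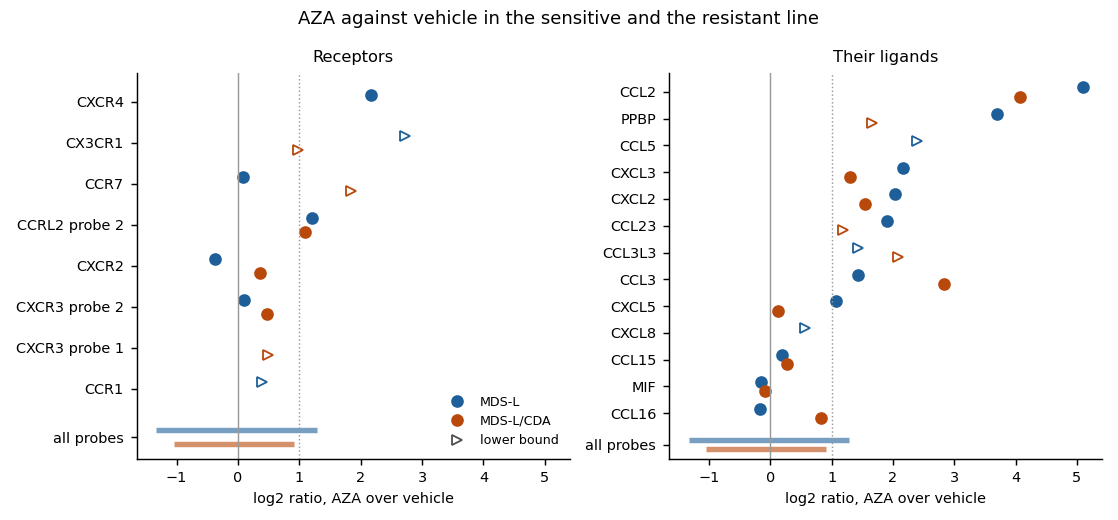
The log2 ratio of AZA over vehicle (horizontal axis) for receptor probes (left) and the ligands of the receptors (right), in MDS-L (blue) and MDS-L/CDA (orange). Filled circles are ratios with both arrays well above background, open triangles are lower bounds, the dotted line is a fold of 2, and the bars at the bottom hold the central 95% of all probes measured on both arrays, from -1.33 to 1.28 in MDS-L and from -1.05 to 0.92 in MDS-L/CDA.

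The ligands of these receptors were higher with AZA in both lines more often than lower. Of 28 ligand genes on the array, 13 were compared in MDS-L cells, and AZA gave a signal at least 2-fold higher for 9 and lower for 0, beside 7.7% and 7.51% of all genes. The median log2 ratio of the 10 measured on both arrays was 1.25 beside -0.15 for all probes. The resistant line had 7 of 11 higher and 0 lower, beside 3.09% and 4.09% of all genes, with a median of 0.94 over 8 genes beside 0.01. CCL2, the ligand of CCR2, had signals of 304 and 10383 in MDS-L vehicle and AZA and 325 and 5435 in MDS-L/CDA vehicle and AZA, ratios of 34.1 and 16.7. No probe of its receptor passed background on these arrays.

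Among the ligands of CXCR2, PPBP, a platelet chemokine, was 13.0-fold higher with AZA in MDS-L and at least 3.17-fold higher in MDS-L/CDA cells. CXCL3 was 4.48-fold and 2.47-fold higher, and CXCL2 4.07-fold and 2.92-fold at the probe with the larger ratio. CXCL8, which CXCR1 and CXCR2 share, was detected in MDS-L AZA alone at 28.1.

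Ligands of CCR1 did not share 1 pattern over the lines. CCL23 was 3.75-fold higher with AZA in MDS-L and at least 2.26-fold higher in MDS-L/CDA cells. CCL15 had AZA ratios of 1.14 and 1.21, and CCL16 also stayed within a fold of 2 in both lines. CCL5 was at least 5.23-fold higher with AZA in MDS-L cells and stayed below detection in MDS-L/CDA cells with either treatment (5.86 and 5.83). CCL3 was 2.70-fold higher in MDS-L and 7.09-fold higher in MDS-L/CDA cells, and CCL3L3 at least 2.70-fold and at least 4.22-fold, although these near-identical genes may share signal. CXCL12 (CXCR4), CX3CL1 (CX3CR1), CCL19 and CCL21 (CCR7) and RARRES2 (CCRL2) were not well above background on any array, so CXCR4, CX3CR1, CCR7 and CCRL2 had no detected ligand in the list apart from MIF, which also binds CXCR4. The MIF ratios were 0.90 in MDS-L and 0.94 in MDS-L/CDA cells.

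Among 14 other chemokine receptors, CCR6 was detected on every array, between 143 and 172, and CXCR5, the receptor for B cell follicle homing, in MDS-L AZA alone at 45.1, at least 2.37-fold higher than vehicle. CXCR5 was thus 1 of 2 compared with AZA in MDS-L cells, beside 7.7% of all genes higher. The remaining 12 were not well above background anywhere. Of 15 other chemoattractant receptors, 3 of 10 compared were higher with AZA in MDS-L cells, beside 7.7% of all genes. PTGDR2, a prostaglandin receptor of basophils and eosinophils, was 6.80-fold higher, GPR183, an oxysterol receptor, at least 6.18-fold and FPR2, a formyl peptide receptor, at least 2.09-fold. The resistant line had 2 of 8 higher, beside 3.09% of all genes, PTGDR2 by 3.62-fold and LTB4R, a leukotriene B4 receptor, by at least 2.27-fold. By the fold 0 were lower in either line, beside 7.51% and 4.09% of all genes.

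The machinery downstream of the receptors was expressed throughout, with 24 or 25 of 27 signalling genes detected on each array. In MDS-L cells 2 of 26 compared were higher with AZA and 1 lower, and in MDS-L/CDA cells 2 of 25 were higher and 0 lower, beside 7.7% and 7.51% of all genes higher and lower in MDS-L cells and 3.09% and 4.09% in MDS-L/CDA cells. RGS proteins shorten G protein signalling, and both higher genes in MDS-L cells were of this family. At both of its 2 probes RGS16 was below detection with vehicle in MDS-L cells. With AZA the brighter probe reached 773, at least 40.7-fold higher, and the other 66.6. In MDS-L/CDA cells both probes stayed below detection with either treatment. The brighter probe gave 6.62 with vehicle and 25.1 with AZA there, and the other 6.08 and 6.09. The value of 25.1 is above the lowest detected signal of the MDS-L arrays (19.0) but under that of its own array (29.6). RGS1 was 3.67-fold higher in MDS-L and at least 4.68-fold higher in MDS-L/CDA cells. GNG2, a G protein gamma subunit, was at least 5.35-fold lower with AZA in MDS-L cells. The second gene in MDS-L/CDA cells was GNAI3, an inhibitory alpha subunit, by 1 of its 3 probes (3.09-fold).

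Markers of progenitors and of other blood cells also differed between the arrays. KIT, the stem cell factor receptor of progenitors and mast cells, gave 50.3 with vehicle and 2382 with AZA in MDS-L cells (47.3-fold), and 34.6 and 124 in MDS-L/CDA cells (3.58-fold), so that with AZA it was 19.2-fold lower in the resistant line. The other 5 progenitor markers stayed within a fold of 2 in all 4 comparisons. The mast cell, basophil and eosinophil markers were CPA3, TPSAB1, HDC, FCER1A, MS4A2, PRG2 and CLC. With AZA, 7 of 7 were at least 2-fold higher in MDS-L cells, beside 7.7% of all genes. In MDS-L/CDA cells 4 of 6 compared were higher, beside 3.09%. In both lines 0 were lower, beside 7.51% and 4.09%. Their summed signal was 3825, 27911, 1579 and 6916 on MDS-L vehicle, MDS-L AZA, MDS-L/CDA vehicle and MDS-L/CDA AZA. Of 5 T cell markers, CD3D and CD2 were at least 23.5-fold and 5.94-fold higher with AZA in MDS-L cells, and CD3E, CD3G and CD5 were not detected on any array. These were 2 of 2 compared in MDS-L cells, beside 7.7% of all genes. In MDS-L/CDA cells 0 of 1 compared was higher, beside 3.09%. The summed T cell signal was 55.8, 605, 53.5 and 87.5, with 0 of 5 markers detected on each vehicle array. Of 4 NK cell markers, 2 were compared in MDS-L and 1 in MDS-L/CDA cells. NKG7 was 2.22-fold lower with AZA in MDS-L cells and 2.04-fold higher in MDS-L/CDA cells, beside 7.51% lower and 3.09% higher of all genes. Among monocyte markers, CD14 gave 35.3 and 23.6 with vehicle and AZA in MDS-L cells and 10.4 and 53.0 in the resistant line, where that with vehicle was not detected. CSF1R was detected with AZA alone, at 92.2 in MDS-L and 45.4 in MDS-L/CDA cells, and FCGR1A and VCAN on no array. Of 7 neutrophil markers, ELANE, MPO, AZU1 and S100A9 were detected on none, while CSF3R had signals of 739, 414, 67.4 and 61.6 in the same order. PRTN3 (24.0, 30.1, 27.1 and 28.3) and S100A8 (22.7, 44.8, 19.7 and 31.0) were well above background on the MDS-L arrays alone. The AZA ratios in MDS-L cells went both ways within a fold of 2, at 0.56 for CSF3R, 1.25 for PRTN3 and 1.97 for S100A8. The part of these markers in the receptor signals was not tested.

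Genes whose signals followed those of a receptor most closely were sought among probes with the same background flags on the 4 arrays, by the Euclidean distance of log2 signals centred on their mean over 4 arrays. Nearest to CXCR4 were BHLHE22 (0.70), BAMBI (1.12) and HOXB6 (1.36), and of 657 probes with its flags 0 lay within 0.5. CX3CR1 had KCNMB3 and VWA5A (both 0.18) and the T cell marker CD2 (0.29), with 9 of 227 within 0.5. Nearest to CCR7 were SLC10A7 (0.99), PCBP1-AS1 (1.02) and VN1R1 (1.12), with 0 of 463 within 0.5. CCRL2 probe 2 was matched by CNRIP1 (0.061), SPSB1 (0.088) and TMEM145 (0.095), with 229 of 17806 within 0.5. For CXCR2 the nearest were ZNF100, LINC01104 and UBAP2L, and for CXCR3 probe 2 FUNDC2, CCT8 and SFXN5, and 4385 and 6269 of 17806 probes lay within 0.5, so their pattern was common. With 4 arrays, such likeness is a description of these signals.

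Probes near the receptors on the chromosome were compared by the same fold, CXCR4 and CCR7 in most detail, a choice made after the data had been seen. Within 500 kb of the CXCR4 probe in hg19, 18 other probes were on the array and 7 could be compared between the lines with vehicle. The log2 ratios of the 6 measured on both ran from -0.42 to 0.28 with a median of -0.14, and 0 of 7 were at least 2-fold lower or higher, beside 3.46% and 2.59% of all genes. With AZA, 2 of 8 compared were higher and 1 lower in MDS-L/CDA than in MDS-L cells, beside 6.74% and 6.26% of all genes. AZA gave a lower signal for 2 of 8 in MDS-L and 2 of 7 in MDS-L/CDA cells, beside 7.51% and 4.09% of all genes. It gave a higher signal for 0 in either line, beside 7.7% and 3.09%. Neighbours are counted here by probe, while the shares count genes with at least 1 probe past the fold. Around CCR7, 26 of 61 probes were compared with vehicle, 23 of them measured on both with log2 ratios from -0.74 to 0.64 and a median of 0.01. Of the 26, 0 were lower or higher by the fold, beside 3.46% and 2.59% of all genes. With AZA, 3 of 26 were higher in MDS-L/CDA cells and 0 lower, beside 6.74% and 6.26% of all genes. In MDS-L/CDA cells, AZA also left 0 of 24 compared neighbours of CCR7 at least 2-fold higher or lower, beside 3.09% and 4.09% of all genes. Around CX3CR1, 0 of 9 compared were higher and 1 was lower with AZA in MDS-L cells, beside 7.7% and 7.51% of all genes. In the same comparison 0 of 27 were higher and 1 was lower around CCR7. Around CCR1, 2 of 7 were higher, CCRL2 probe 2 among them, and 1 was lower. Higher were also 1 of 5 around CCRL2 probe 2, 3 of 18 around CXCR2 and 3 of 17 around CXCR3, with 0 lower around each.

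**Figure D4:**
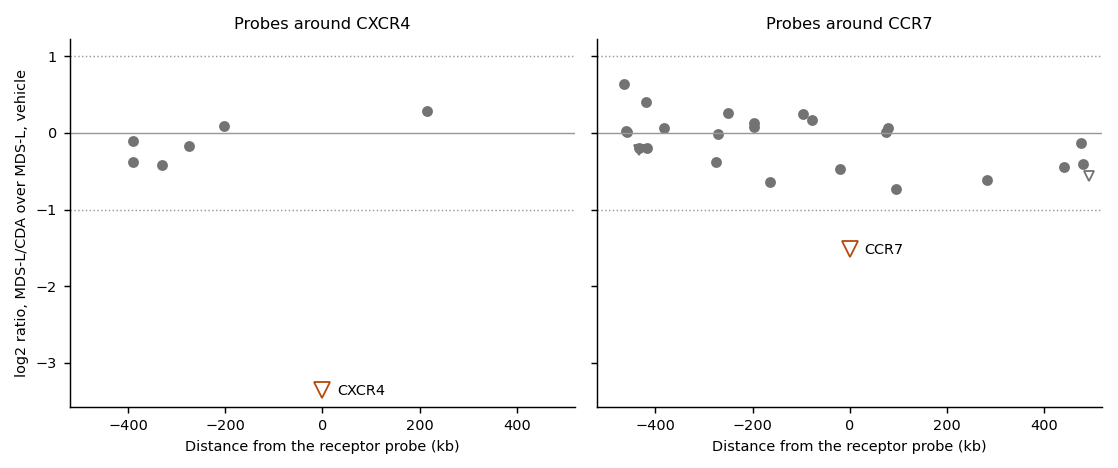
The log2 ratio of MDS-L/CDA to MDS-L with vehicle (vertical axis) for probes within 500 kb of the CXCR4 probe (left) and the CCR7 probe (right), by distance in kb. Filled circles are ratios measured on both arrays, open triangles are bounds, dotted lines mark a fold of 2, and the receptors (orange) lie below every neighbour plotted.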

How the data were processed

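RNA of 4 conditions was measured on 4 one-colour Agilent arrays (Cy3) of 1 slide. The authors deposited the scanner output of each array (Feature Extraction 10.7.1.1, positions in hg19), which holds background-subtracted intensity per spot without scaling between arrays, and a value table of intensity for 51680 probes, used as an alternative. Outlier-flagged and control spots were removed from the deposited intensity (16 probes lost). Repeat spots were averaged as log2 signal, from which each array's 75th percentile was subtracted. A gene counted as higher or lower when at least 1 probe, well above background on the brighter array, had a ratio or bound of at least 2. The study's methods add a Z score without its formula, which is an alternative here, as are other scalings, filters, folds and probe rules (16 in all). No test was made, since with 1 array per condition neither the effect of AZA within a line nor its difference between lines has replicates, and the number of arrays limits the precision.

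All probes of the 9 receptors are reported. From 12 gene lists, genes past the fold with AZA are named, at most 5 per list and line. Those of the B cell and the erythroid and megakaryocyte markers are not named. Further CCR1 ligands and RGS genes, defining markers and the 3 probes nearest to each receptor are named besides. One listed marker is not reported here. Members and lists were chosen with earlier results of these data known. Names of genes follow the array design, and 9 of 9 receptors matched RefSeq. Promoter sequences are from RefSeq (GRCh38.p14) and probe sequences from the scanner files. Python 3.11.15, numpy 2.4.6, pandas 2.3.3, matplotlib 3.10.9, R 4.3.3 and limma 3.58.1 (normexp with an offset of 50) were used.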

Additional observations from a re-analysis of the deposited data

How the results depend on the processing

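No paired analysis was possible because each condition has 1 array and the labels number no replicates. Over 11 alternatives for ratios, no ratio past the fold turned sign in a receptor probe. With normexp, whose offset compresses dim signals by construction, the receptors higher with AZA were 1 in MDS-L (CXCR4) and 0 in MDS-L/CDA cells, and 1 (CXCR4) was lower in MDS-L/CDA than in MDS-L cells with either treatment. When both arrays had to be well above background, which leaves out every bound, 1 was higher with AZA in MDS-L/CDA cells (CCRL2), and 0 with vehicle and 1 with AZA (CX3CR1) were lower in MDS-L/CDA than in MDS-L cells. A fold of 3 left 1 higher with AZA in MDS-L/CDA cells (CCR7) and 1 lower between the lines with vehicle and with AZA (CXCR4). The Z score left 1 higher with AZA in MDS-L/CDA cells (CCR7) and 1 lower between the lines with AZA (CXCR4), and without scaling 1 was higher with AZA in MDS-L/CDA cells (CCR7). With the positive and significant flag or no filter, 2 receptors, CXCR3 and CCRL2, became higher in MDS-L/CDA than in MDS-L cells with vehicle. Under these filters 4613 of 28244 and 4755 of 43311 genes were higher. The receptor calls came from CXCR3 probe 1 (12.1 against 4.73) and CCRL2 probe 1 (8.85 against 4.39), not well above background on either array. Probe 2 of CXCR3 and of CCRL2, detected on all arrays, had ratios of 1.04 and 0.83. With AZA, CXCR3, 1 receptor, became higher in MDS-L/CDA than in MDS-L cells under those filters, by probe 1, beside 4188 of 29617 and 4190 of 43311 genes. It did so too with computed ratios (1210 of 16768 genes) and a fold of 1.5 (3998 of 16768). The same held for quantile normalization over all arrays (1038 of 16768) and the authors' value table (982 of 16100). Where no construction is named, the cause was not tested. The counts under all other alternatives stayed within 1.5 times. Over all genes, the count higher with AZA in MDS-L cells was 1325 and ran from 396 to 5427, and the count lower was 1292 (313 to 5017). In MDS-L/CDA cells these were 476 (74 to 2776) and 631 (111 to 2716). Between the lines they were 416 (39 to 4755) and 554 (135 to 2176) with vehicle, and 1130 (137 to 4190) and 1050 (391 to 3243) with AZA. Median scaling moved the median log2 ratio of all probes from -0.15 to -0.69 in MDS-L cells and from 0.09 to -0.43 between the lines with vehicle, and the share of calls that were higher from 50.6% to 11.0% and from 42.9% to 3.12%. Without scaling that share was 26.8% in place of 43.0% in MDS-L/CDA cells and 7.58% in place of 51.8% between the lines with AZA.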
